A study of Mus musculus with 6 samples.

Results

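The cells described here are cultured mouse dermal fibroblasts that were treated with 5-aza-2'-deoxycytidine (decitabine), a drug that lowers DNA methylation, and that kept an X-linked GFP transgene silent. They are compared with untreated fibroblasts of the same kind. The comparison uses 4 of the 6 arrays of the study, 2 of treated GFP-negative cells and 2 of control cells, chosen by their labels and not by any measured value. The remaining 2 arrays hold treated cells that had switched the transgene on, the GFP-positive cells. They share in the estimate of the spread and in a comparison at the end.

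All groups came from explant cultures of the dermis of mice aged 0 to 2 days, labelled strain B6 and used at passage 4. The mice were daughters of males that carried the GFP transgene on their X chromosome, in a mixed 129/ICR background, and of wild-type BL6 females. A chicken β-actin promoter with a CMV enhancer drives the transgene. The cells had first been sorted by flow cytometry for absence of GFP, so that the paternal X with its transgene was the inactive one. For control replicate 2 the labels do not give this sort. Control cells were left untreated for the same 48 hours, had the same 24 hours of recovery and were not sorted again. GFP-negative cells received 4 μM of the drug for 48 hours, recovered for 24 hours and were then sorted again for cells without GFP. The drug and the further sort cannot be told apart in this comparison. The labels give the sex as mixed for control replicate 2, which has no sort label either, and as female for the other arrays. How many animals were pooled for a culture is not given in the sources used here, nor whether the 2 biological replicates of a group came from separate litters, so a p-value speaks only of the spread among these arrays, which may be technical.

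5-aza-2'-deoxycytidine is a cytosine analogue that is built into DNA during replication. There it traps DNA methyltransferases, so that methylation is lost as cells divide, and the trapped enzymes also act as DNA lesions. Methylation at promoters rich in CG dinucleotides keeps germline genes silent in somatic cells and helps to hold the inactive X silent. The dermal fibroblast is the mesenchymal cell that builds the collagen, proteoglycan and elastic fibre network of the skin. By the study's design the drug leaves part of the cells unaffected, and one aim was to learn whether cells sorted for GFP hold more of the affected ones. GFP-negative cells are the treated cells in which the transgene was not switched on.

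The measurement was 1 hybridisation signal per probe set and array on Affymetrix mouse expression arrays. Signals are printed after scaling each array to the same 2% trimmed mean, 500, because GFP-negative replicate 2 and GFP-positive replicate 2 had been deposited with trimmed means of 62.0 and 50.5. Signals of different genes are not comparable as levels. Of the probe sets, 27022 were bright enough to be tested, covering 13223 named genes. Differences are on the scale of log2(signal + 30.64), so that changes of dim probe sets come out smaller than they are. The number of arrays limits the precision. The replicate 1 arrays and the replicate 2 arrays formed 2 array sets with different signal distributions in every group: the lower quartile of scaled signals lay at 38.7 to 42.5 in set 1 and 19.2 to 22.6 in set 2. The deviations of same-numbered arrays from their group means correlated at 0.513 for control and GFP-negative cells. The fibroblast genes Col1a1, Col1a2 and Thy1 were bright on every array, as the label dermal fibroblast has it. Markers of other cell types were bright enough to be tested in part. These were 6 of 10 for keratinocytes, 4 of 8 for melanocytes and 6 of 8 for endothelial cells. For leukocytes they were 7 of 9 and for Schwann cells 5 of 7. Ptprc (leukocytes), Pecam1 (endothelium) and Krt14 (keratinocytes) were not bright enough. Krt5 and Trp63 (keratinocytes), Cdh5 (endothelium), Tyr (melanocytes) and Sox10 (melanocytes and Schwann cells) were. How many other cells were present was not tested.

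Differences were called at an adjusted p of 0.05 with limma. Without regard to the array sets, 8 of 27022 probe sets were called, 7 higher (0.0259%) and 1 lower (0.0037%) in GFP-negative cells (0.0296% of those tested), and 1370 had an unadjusted p under 0.05. They represent Krt8, with 2 probe sets, Krt18, Asb5, Phlda1, Noct, Ccn3 and a probe set that several genes share. With the array set entered as a block, the test called 966 (3.57%), 513 higher (1.9%) and 453 lower (1.68%), and all 8 were among them. All 966 differed in the same direction in both sets, as did 16374 of all 27022 probe sets. The blocked fit favours such agreement, so it is no separate support. For 891 the control and the GFP-negative signals did not overlap. Over all probe sets this held for 15.1% in the higher and 13.5% in the lower direction. Of the called probe sets, 67 were higher and 42 lower by at least 4-fold on the offset scale. The blocked fit has 2 residual degrees of freedom and leans on the mean-variance trend that limma shares between probe sets: without that trend 0 were called, with or without the block, although 3489 of the blocked values had an unadjusted p under 0.05. Leaving out both arrays deposited on another scale, in a fit without a block, left 1 GFP-negative array. The median difference over all probe sets was then 0.149, against 0.04 with all arrays. In what follows "rose" and "fell" refer to the blocked fit, which was planned as the alternative to the fit without a block. The SE and adjusted p printed are those of that fit, and the values within set 1 and set 2 stand beside the main genes.

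**Figure D1:**
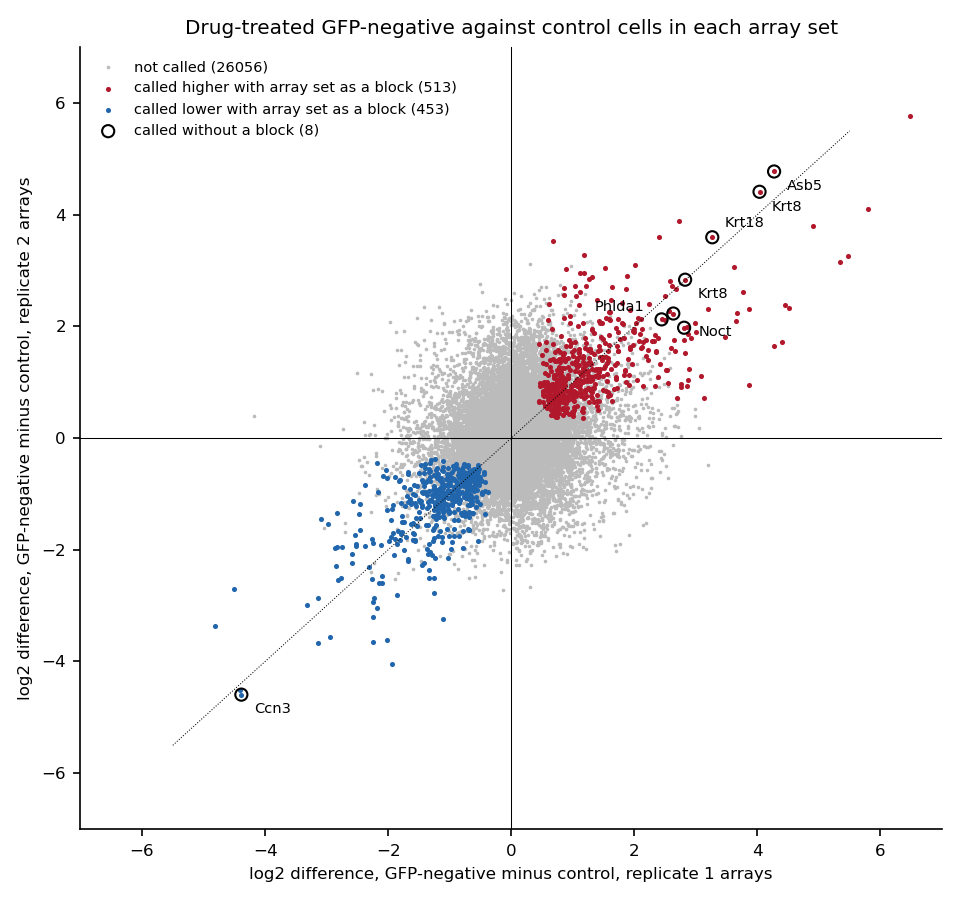
Log2 difference of GFP-negative minus control cells for each of the 27022 tested probe sets, from the replicate 1 arrays (horizontal axis) and the replicate 2 arrays (vertical axis). Red and blue points were called higher (513) or lower (453) with the array set as a block, grey points were not called, and black rings mark the 8 called without a block, which lie close to the dotted line of equal change.

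Over all 13223 genes, each taken at its brightest probe set, 321 rose and 278 fell with a median difference of 0.04. The difference was positive for 7200. The counts of the gene lists below stand against these shares, and a single call does not set a list apart. Leaving out clone-type symbols such as Gm9222, the genes with the largest called rises were Asb5, Krt8 and Krt18, and those with the largest falls were Ccn3, a probe set of Prelp (-4.09), Mfap4, Gas1 and Lum.

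Several of the very largest rises belong to probe sets that carry no gene symbol in the annotation used here, 10 of the 67 that rose at least 4-fold and 0 of the 42 that fell. Of these 10, 8 are of the types _x_at and _s_at, which can bind related transcripts. The largest, 1451626_x_at, had signals of 181 and 33.5 in control and 18848 and 3460.2 in GFP-negative cells. Both treated arrays lay far above both controls, and it rose by 6.12 ± 0.23 (6.48 in set 1 and 5.77 in set 2; adjusted p = 4.11e-07). A second, 1436362_x_at, was at 744 and 983 in control and 34161 and 9699 in GFP-negative cells and rose by 4.36 ± 0.35. The clone-type gene Gm9222 was at 248 and 126 in control and 15539 and 2656 in GFP-negative cells and rose by 4.95 ± 0.30. All 3 were higher still in GFP-positive cells, at 28121 and 12539 for 1451626_x_at. Without the block none of these 3 was called. They were named after their values were seen.

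**Figure D2:**
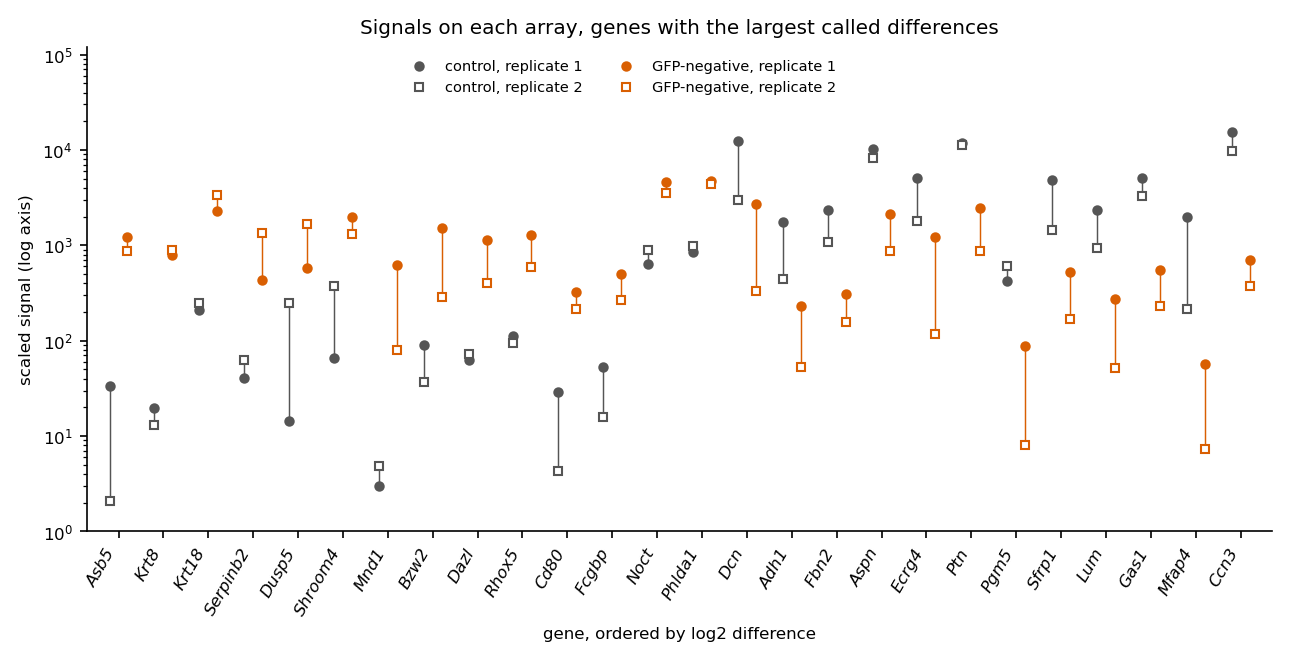
Scaled signal on a log axis for the genes with the largest called differences, ordered by log2 difference. Grey symbols are the 2 control arrays and orange symbols the 2 GFP-negative arrays, filled for replicate 1 and open for replicate 2, with a line joining the arrays of a group. The signals of the groups do not overlap for any gene shown, which the choice of the largest differences required.

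Keratins of simple epithelia rose from low signals in control fibroblasts. Keratin filaments are built from pairs of a type II and a type I keratin, and Krt8 with Krt18 is the pair of simple epithelia. Krt8 had signals of 19.5 and 13.1 in control and 791 and 898 in GFP-negative cells. It rose by 4.22 ± 0.23 (4.03 in set 1 and 4.41 in set 2; adjusted p = 7.59e-06), and both treated arrays lay far above both controls. Its 3 probe sets rose by 2.83 to 4.22. Krt18 stood at 211 and 249 in control and 2292 and 3341 in GFP-negative cells. It rose by 3.43 ± 0.17 (3.27 in set 1 and 3.59 in set 2; adjusted p = 2.49e-06). Without the block both passed as well, with adjusted p-values of 0.0184 and 0.0351. Krt7, another type II keratin of simple epithelia, was at 65.7 and 136 in control and 539 and 774 in GFP-negative cells and rose by 2.42 ± 0.22. Krt19, a type I keratin, was already present in control cells at 462 and 939 and reached 801 and 1604. Its groups overlap, and within each set it was higher by 0.76 and 0.75 (adjusted p = 0.0437). Of 25 genes of simple epithelial keratins and junctions with a probe set, 18 were tested. Among the 18, 5 rose and 0 fell, with a median of 0.74. Of the junction genes only Pkp2, a plakophilin of desmosomes, was among them (0.74; 1.01 and 0.47 within the sets; adjusted p = 0.0451). The count was 3 with either GFP-negative array left out, and 7 without control replicate 1. The filter also counted the treated arrays, so a gene dim in control cells could pass through its treated signals. That tilts count and median towards rises. The Krt8 probe set printed above passed in this way, with both controls below 67.71. The brightest Krt8 probe set, which the list uses, was at 93.9 and 125.8 in control.

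The RefSeq promoter windows of the keratin pair are shown, 250 bases before to 50 after the start of the transcript in GRCm38.p6. They were chosen because the pair had the smallest p-values in the blocked fit among rises of probe sets with 1 gene symbol. The rise of 1451626_x_at, which has no symbol, had a smaller p-value. Capitals mark each CG, the dinucleotide that DNA methyltransferases modify, which reads the same on both strands. The window of Krt8 is chr15:102004293-102004592 on the minus strand and that of Krt18 is chr15:102027966-102028265 on the plus strand.
Krt8: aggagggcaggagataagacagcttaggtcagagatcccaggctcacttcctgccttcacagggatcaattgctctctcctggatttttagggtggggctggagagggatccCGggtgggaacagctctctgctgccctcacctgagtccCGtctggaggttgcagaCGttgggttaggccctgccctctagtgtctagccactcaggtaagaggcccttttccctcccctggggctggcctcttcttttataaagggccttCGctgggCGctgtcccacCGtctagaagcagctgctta
Krt18: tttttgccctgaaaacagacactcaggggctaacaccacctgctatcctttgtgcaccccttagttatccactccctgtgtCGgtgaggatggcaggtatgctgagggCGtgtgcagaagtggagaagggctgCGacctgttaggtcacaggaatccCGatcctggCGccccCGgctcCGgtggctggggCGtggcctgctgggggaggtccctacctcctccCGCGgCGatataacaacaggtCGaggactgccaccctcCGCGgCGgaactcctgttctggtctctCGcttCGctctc
The Krt8 window holds 6 CG, and 56.4% of 32851 such windows of mouse genes hold at least as many. The Krt18 window holds 17, a number reached by 31.4% of windows. Over the tested genes the median of the richest window per gene was higher, at 21. Methylation itself was not analysed here.

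Some genes known from stressed muscle rose too. Asb5, an ankyrin repeat protein of the SOCS box family, had signals of 33.8 and 2.10 in control and 1214 and 863 in GFP-negative cells. The control signals lay below 67.71, the mean signal needed to be tested, and the treated ones far above. It rose by 4.52 ± 0.25 (4.27 in set 1 and 4.77 in set 2; adjusted p = 7.59e-06), with an adjusted p of 0.0351 without the block. Ankrd1, the cardiac ankyrin repeat protein that responds to stretch, went from 1248 and 2837 to 9319 and 10352. It rose by 2.36 ± 0.22 (2.87 in set 1 and 1.86 in set 2; adjusted p = 0.000183). Nppb, the natriuretic peptide of the stressed heart, was at 374 and 461 in control and 1564 and 1538 in GFP-negative cells and rose by 1.83 ± 0.18 (adjusted p = 0.000284). These were 3 of 10 tested muscle stress genes, of 17 with a probe set, and 0 fell. The filter kept Asb5 through its signals in treated cells, which tilts the count towards rises. Among filament genes of mesenchymal cells Des, which encodes desmin of muscle, was at 44.6 and 69.1 in control and 536 and 314 in GFP-negative cells and rose by 2.35 ± 0.36. A second probe set of Des differed by 0.16 and was not called. Nes, which encodes nestin, an intermediate filament of progenitor cells, was at 407 and 391 in control and 1287 and 1492 in GFP-negative cells and rose by 1.72 ± 0.17. None of the 12 smooth muscle contractile genes was called, and their median was 0.17. The sarcomeric actins Acta1 and Actc1 rose by 1.20 (1.58 and 0.82 within the sets) and 1.09 (1.30 and 0.88), whereas the 3 tested myogenic regulators had a median of -0.55 with 0 called.

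Genes that respond to the ERK branch of MAP kinase signalling held the largest number of rises of the gene lists used. ERK switches on early transcription factors and ligands of the EGF receptor, and it switches on phosphatases and Sprouty proteins that dampen the pathway. Of 34 tested output genes 14 rose and 1 fell, and the median was 0.73 against 0.04 over all genes. Between 11 and 16 rose when any 1 array was left out of the blocked fit.

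Of 7 phosphatases of the dual-specificity family, which remove phosphate from MAP kinases, 5 rose. Dusp5, a nuclear phosphatase of ERK, was at 14.5 and 249 in control and 582 and 1683 in GFP-negative cells. The groups do not overlap, although the controls differed widely, and it rose by 3.19 ± 0.38 (3.76 in set 1 and 2.62 in set 2; adjusted p = 0.000858). Dusp4 went from 581 and 1328 to 2751 and 3714 and rose by 1.82 ± 0.18. Dusp6, the cytoplasmic ERK phosphatase, was at 558 and 914 in control and 1477 and 2173 in GFP-negative cells and rose by 1.29 ± 0.15. Dusp10 and Dusp1 rose by 1.16 and 0.76. Sprouty genes moved in both directions. Spry4 went from 271 and 124 to 513 and 416, higher by 1.19 (0.85 and 1.53; adjusted p = 0.0271). Spry1 went from 5280.3 and 4674 to 3364 and 2102, lower by 0.89 (-0.65 and -1.14; adjusted p = 0.039).

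Among the listed output genes are ligands of the EGF receptor, transcription factors and other targets, of which 4 of 14 factors and 4 of 7 other targets rose. Ereg, which encodes epiregulin, a ligand of the EGF receptor, had signals of 448 and 462 in control and 2479 and 1685 in GFP-negative cells. It rose by 2.09 ± 0.18 (2.39 in set 1 and 1.80 in set 2; adjusted p = 0.000115). Hbegf, heparin-binding EGF-like growth factor, was at 1098 and 2553 in control and 3815 and 8761 in GFP-negative cells. Each control lay below its treated partner by the same factor, and it rose by 1.77 ± 0.13 (1.77 in set 1 and 1.77 in set 2; adjusted p = 5.01e-05). Of the AP-1 transcription factors, Fosl1 was at 304 and 444 in control and 1491 and 1565 in GFP-negative cells and rose by 1.97 ± 0.17. Jun rose by 1.07 (0.79 and 1.35 within the sets) and the zinc finger factor Egr2 rose by 1.26 (1.39 and 1.13 within the sets). Phlda1, a pleckstrin homology protein induced by growth factors, was at 849.7 and 982 in control and 4757 and 4386 in GFP-negative cells. It rose by 2.28 ± 0.15 (2.44 in set 1 and 2.12 in set 2; adjusted p = 2.81e-05), and passed without the block at an adjusted p of 0.0386. Plaur, the receptor of the plasminogen activator urokinase, was at 927 and 1362 in control and 2624 and 3622 in GFP-negative cells and rose by 1.43 ± 0.15. Serpinb2, an inhibitor of the same activator that lies outside the list, was at 40.5 and 62.9 in control and 438 and 1347 in GFP-negative cells and rose by 3.30 ± 0.30 (2.72 in set 1 and 3.88 in set 2; adjusted p = 0.00015).

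**Figure D3:**
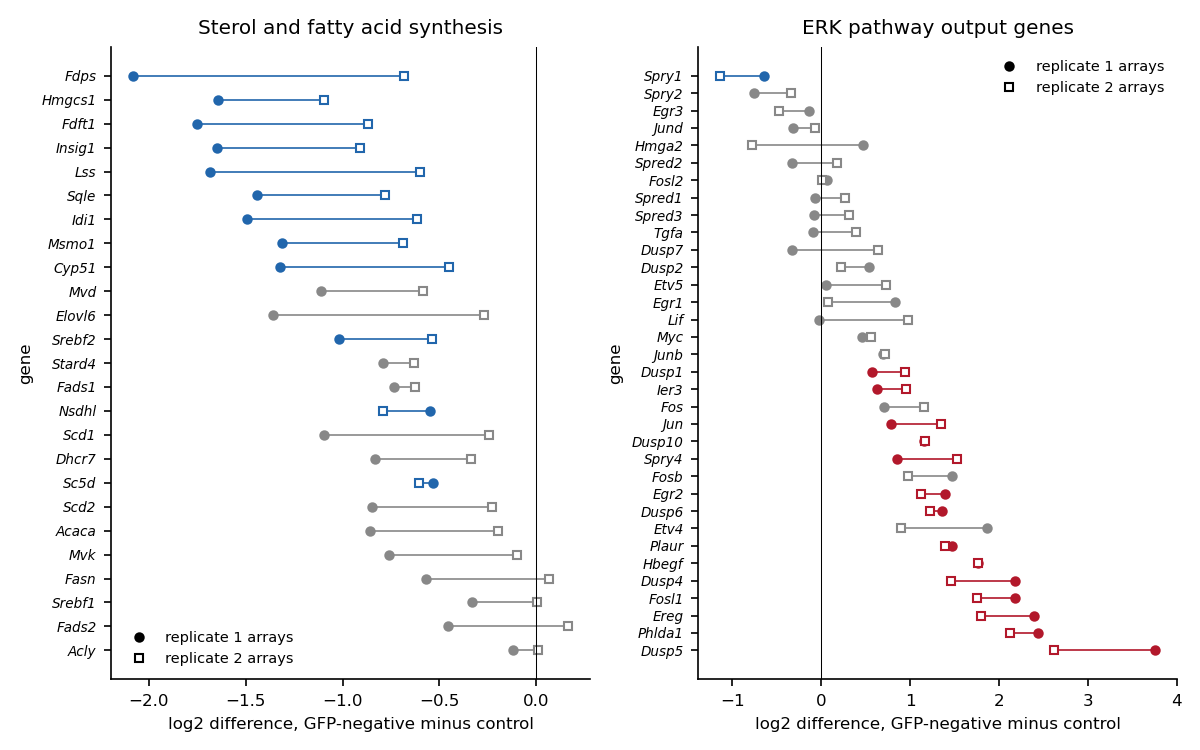
Log2 difference of GFP-negative minus control cells for each tested gene of sterol and fatty acid synthesis (left) and of ERK output (right), filled circles for the replicate 1 arrays and open squares for the replicate 2 arrays. Blue and red mark genes called lower or higher with the block, and grey marks genes not called: 12 of 25 on the left fell, and on the right 14 of 34 rose and 1 fell.

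Several genes of the matrix that fibroblasts secrete fell. Small leucine-rich proteoglycans bind collagen fibrils and set their width and spacing. Of 10 tested, 6 fell and 0 rose, with a median of -1.36. Lum, which encodes lumican, was at 2319.8 and 934 in control and 274 and 51.6 in GFP-negative cells. It fell by 3.25 ± 0.25 (-2.95 in set 1 and -3.55 in set 2; adjusted p = 6.46e-05). Dcn, which encodes decorin, was at 12516 and 2957 in control and 2720.4 and 334 in GFP-negative cells. The control arrays differ widely, yet in each set the treated array was far lower, and it fell by 2.61 ± 0.20 (-2.19 in set 1 and -3.04 in set 2; adjusted p = 6.46e-05). Prelp was at 3795 and 670.2 in control and 502 and 112 in GFP-negative cells and fell by 2.57 ± 0.22. Aspn, which encodes asporin, was at 10185 and 8307 in control and 2129.8 and 876 in GFP-negative cells. It fell by 2.72 ± 0.24 (-2.24 in set 1 and -3.20 in set 2; adjusted p = 0.000137). Ogn and Fmod fell by 1.39 and 1.14. The count of 6 was the same in 3 of the 4 blocked fits that left out 1 control or GFP-negative array, and 5 without GFP-negative replicate 1.

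Elastic fibres have a core of elastin laid on fibrillin microfibrils. Of 18 tested genes 8 fell and 2 rose, with a median of -0.55. Mfap4, a microfibril protein, was at 1966 and 215 in control and 57.5 and 7.26 in GFP-negative cells. It fell by 3.60 ± 0.55 (-4.50 in set 1 and -2.70 in set 2; adjusted p = 0.00453). Fbn2, a fibrillin of developing tissue, was at 2352 and 1077 in control and 309 and 159 in GFP-negative cells and fell by 2.68 ± 0.22. Fbln5, a fibulin needed for fibre assembly, was bright on all arrays at 13877 and 17556 in control and 4584 and 4904 in GFP-negative cells. It fell by 1.71 ± 0.14 (-1.59 in set 1 and -1.83 in set 2; adjusted p = 8.34e-05), and the groups are far apart. Eln, the elastin gene, was at 2577 and 278 in control and 443 and 105 in GFP-negative cells. Its groups overlap because the control arrays differ, and it fell by 1.83 (-2.46 and -1.19; adjusted p = 0.0394). Mfap2 fell by 1.21. The genes that rose were Ltbp1 and Ltbp2, which encode proteins that anchor latent TGF-β to microfibrils, by 1.20 and 0.86. The 4 cross-linking enzymes had a median of -0.06 and 0 calls. The count of falls was 4 without GFP-negative replicate 2, and that of rises 1 without it or without control replicate 2.

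Of 21 collagen chains 4 fell and 1 rose, with a median of -0.23, and 2 rose without control replicate 1. The beaded-filament chains Col6a1 and Col6a2, which form collagen VI, fell by 1.07 and 1.29. Col6a2 was at 13646 and 11053 in control and 7110.1 and 3544 in GFP-negative cells, with no overlap. The fibrillar chain Col11a1 fell by 1.29, and Col3a1, at 31909 and 39808 in control and 22927 and 19968 in GFP-negative cells, fell by 0.74. Col7a1, the anchoring fibril collagen beneath the epidermis, was at 927 and 938 in control and 2286 and 2469 in GFP-negative cells. It rose by 1.32 ± 0.17 (1.28 in set 1 and 1.37 in set 2; adjusted p = 0.00135).

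Matricellular CCN proteins moved apart. Ccn3 had the only fall called without the block (adjusted p = 0.0391). Its signals were 15436 and 9777 in control and 709 and 376 in GFP-negative cells, and the treated arrays lay far below both controls. It fell by 4.49 ± 0.16 (-4.39 in set 1 and -4.59 in set 2; adjusted p = 4.11e-07). Both its probe sets fell. Ccn5 was at 8626 and 8287 in control and 3628 and 1845 in GFP-negative cells and fell by 1.70 ± 0.25, whereas Ccn1, a target of growth factor signalling, was at 14646 and 12636 in control and 26683 and 18292 in GFP-negative cells and rose by 0.70 ± 0.12. Of 14 tested matrix proteases 1 rose and 4 fell, and of 4 inhibitors 1 rose and 1 fell. Mmp10, a stromelysin, was at 73.2 and 11.7 in control and 267 and 318 in GFP-negative cells and rose by 2.28 ± 0.41 (1.52 in set 1 and 3.04 in set 2; adjusted p = 0.0114), the largest difference among them, with no overlap. Adamts5, which cleaves aggrecan, was at 8005 and 5186 in control and 2908 and 1047 in GFP-negative cells and fell by 1.86 ± 0.19. Adamts1 was at 4291 and 4964 in control and 1409 and 1483 in GFP-negative cells and fell by 1.65 ± 0.16. Mmp11 and Mmp23 fell by 1.34 and 1.10. The inhibitors Timp1 and Timp3 moved apart, higher by 0.73 and lower by 0.72. Over proteases and inhibitors the 2 rises became 1 without GFP-negative replicate 2. The rise called among CCN genes became 0 without GFP-negative replicate 1, and 2 were called without control replicate 2 or with quantile normalization.

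Genes that mark fibroblast identity fell in part. Among 22 transcription factors and surface proteins 7 fell and 0 rose, with a median of -0.37. Prrx1, a homeobox factor of mesenchyme, was at 6275 and 6484 in control and 4131 and 3912 in GFP-negative cells and fell by 0.66 ± 0.13. Osr1, a zinc finger factor, was at 1265 and 1054 in control and 219 and 578 in GFP-negative cells and fell by 1.60 ± 0.32. The other factor was Twist1, lower by 0.75. At the cell surface Pdgfra, a receptor of platelet-derived growth factor, was at 2180.4 and 1066 in control and 1203 and 295 in GFP-negative cells. Its groups overlap, with one control array below one treated array, and in each set it was lower in treated cells (-0.84 and -1.75; adjusted p = 0.00813). Cd248, also called endosialin, was at 4706 and 4637 in control and 2379 and 2816 in GFP-negative cells and fell by 0.84 ± 0.14. Fap and Pdgfrb fell by 1.33 and 0.75. Only 1 of the 7 was called without GFP-negative replicate 1, and 4 without replicate 2.

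Several secreted regulators and receptors of growth pathways fell. Gas1, a membrane protein that binds Hedgehog ligands, was at 5109 and 3291 in control and 551 and 229 in GFP-negative cells. It fell by 3.41 ± 0.20 (-3.14 in set 1 and -3.68 in set 2; adjusted p = 1.07e-05). Ptn, which encodes the growth factor pleiotrophin, was at 11751 and 11293 in control and 2445 and 872 in GFP-negative cells. It fell by 2.95 ± 0.25 (-2.25 in set 1 and -3.65 in set 2; adjusted p = 0.000113), although 1 of its 3 probe sets differed by -0.26 and was not called. In the Wnt pathway 4 of 26 genes fell and 0 rose. They were the secreted antagonist Sfrp1 and the receptors Fzd1, Fzd2 and Ror1. Sfrp1 was at 4845 and 1438 in control and 523 and 170.1 in GFP-negative cells and fell by 3.01 ± 0.19, and all 5 of its probe sets fell. Ror1 was at 769.7 and 877 in control and 213 and 235 in GFP-negative cells and fell by 1.75 ± 0.24, but its other 2 probe sets were not called. The 6 Wnt ligands had a median of 0.61 and 0 calls. Without control replicate 1 the list had 1 rise.

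In the insulin-like growth factor axis 3 of 14 genes fell and 0 rose, and 1 fell without control replicate 1. Pappa, a protease that frees these factors from binding proteins, was at 3628 and 3913 in control and 2046 and 1535 in GFP-negative cells and fell by 1.07 ± 0.16. Igfbp3, a binding protein, was at 2452 and 169.8 in control and 318 and 48.4 in GFP-negative cells, with a control pair so far apart that the groups overlap, and fell by 2.09 (-2.83 and -1.34). Among 27 genes of the TGF-β and BMP pathway 3 rose and 3 fell. The falls became 0 without GFP-negative replicate 1 and 5 without control replicate 2, and the rises became 1 without GFP-negative replicate 2 and 5 without either GFP-positive array. The ligand Inhba was at 3575 and 5574 in control and 8804 and 10056 in GFP-negative cells and rose by 1.07 ± 0.14, and the receptor Acvr2a was at 1929.8 and 1322 in control and 715 and 665 in GFP-negative cells and fell by 1.18 ± 0.18. Among guidance genes 3 of 27 rose and 5 fell, with 3 falls without control replicate 1 or without GFP-negative replicate 1. Slit2, a secreted repellent, was at 10133 and 5790.4 in control and 2929 and 1773 in GFP-negative cells and fell by 1.74 ± 0.13 (-1.78 in set 1 and -1.69 in set 2; adjusted p = 6.46e-05). Slit3 fell by 1.32. The ephrin receptor Epha3 was at 1097 and 890.0 in control and 228 and 214 in GFP-negative cells and fell by 2.02 ± 0.23. Sema3e, a secreted semaphorin, was at 233 and 157 in control and 936 and 1164 in GFP-negative cells and rose by 2.27 ± 0.25.

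Some inflammatory mediators rose. Of 24 chemokines, cytokines and prostaglandin genes 4 rose and 1 fell, with a median of 0.22. Ptgs2, the inducible cyclooxygenase, was at 1949.9 and 3252 in control and 12432 and 9686 in GFP-negative cells. It rose by 2.11 ± 0.20 (2.65 in set 1 and 1.57 in set 2; adjusted p = 0.000251). Il11 was at 112 and 153 in control and 508 and 875 in GFP-negative cells and rose by 2.11 ± 0.22. Csf1, the macrophage growth factor, was at 6810.0 and 6253 in control and 16912 and 14728 in GFP-negative cells and rose by 1.27 ± 0.14, and Ccl2, a monocyte attractant, was at 2094 and 1885 in control and 5646 and 4295 in GFP-negative cells and rose by 1.30 ± 0.13. Cxcl12, a chemokine of fibroblasts, was at 3747 and 5895 in control and 2796 and 3419 in GFP-negative cells, lower by 0.60 (adjusted p = 0.0479). No gene of the list was called lower without GFP-negative replicate 1 or either GFP-positive array, and 2 were without control replicate 1 or with quantile normalization.

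Most enzymes of cholesterol synthesis fell. The pathway runs from acetyl units to lanosterol and on to cholesterol, and its genes are switched on together by the factor encoded by Srebf2 when sterols are scarce. Of 25 tested genes of sterol and fatty acid synthesis 12 fell and 0 rose, the mean difference was below zero for all 25, and the median was -0.71 (-1.02 in set 1 and -0.59 in set 2). For 18 the groups did not overlap and lay lower, against 13.5% of all probe sets. Of the 13 sterol enzymes 10 fell, whereas 0 of the 8 fatty acid genes were called, with a median of -0.53. Hmgcs1, near the start of the pathway, was at 8487 and 11760.3 in control and 2694 and 5479.7 in GFP-negative cells. It fell by 1.37 ± 0.16 (-1.64 in set 1 and -1.10 in set 2; adjusted p = 0.00081). Fdps, which makes farnesyl diphosphate, was at 8047 and 7789.7 in control and 1877 and 4836 in GFP-negative cells and fell by 1.38 ± 0.25. Its change differed between the sets, -2.08 and -0.68. Sqle, the squalene epoxidase, was at 3078 and 3067 in control and 1115 and 1774 in GFP-negative cells and fell by 1.11 ± 0.18. Msmo1, which removes methyl groups from sterols, was at 4145 and 6729 in control and 1651 and 4161 in GFP-negative cells, with overlap between the groups, and fell by 1.00 ± 0.16. Of the regulators Insig1, which retains the sterol sensor in the endoplasmic reticulum, was at 910.1 and 1155 in control and 269.6 and 601 in GFP-negative cells and fell by 1.28 ± 0.22. Srebf2 fell by 0.78. The fall was larger in set 1 for all called genes but Sc5d and Nsdhl. The count of 12 became 4 without control replicate 1, 1 without GFP-negative replicate 1 and 9 without GFP-negative replicate 2.

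Of 19 genes of the unfolded protein and integrated stress responses, 3 fell and 0 rose, and the median was -0.12. The falls became 6 without control replicate 1 and 1 without GFP-negative replicate 1, and 1 rise was called without control replicate 2 or without GFP-negative replicate 2. Trib3, a pseudokinase induced by amino acid shortage, was at 2601 and 1872 in control and 705 and 572 in GFP-negative cells. It fell by 1.75 ± 0.18 (-1.84 in set 1 and -1.66 in set 2; adjusted p = 0.000394). Ddit3, the transcription factor CHOP, was at 3818 and 4318 in control and 2341 and 2532 in GFP-negative cells and fell by 0.73 ± 0.13, and its second probe set, at -0.11, was not called. Herpud1 was at 2913 and 3046 in control and 1596 and 1861 in GFP-negative cells and fell by 0.78 ± 0.14. Of 21 heat shock and antioxidant genes 3 rose and 1 fell. The rises became 1 without either GFP-negative array and 5 without control replicate 2, and the falls 0 without GFP-negative replicate 1 and 2 without control replicate 1. The metallothionein Mt2 was at 899 and 1203 in control and 1579.7 and 3550.5 in GFP-negative cells and rose by 1.16 ± 0.20. Gsta4, a glutathione transferase, was at 1430.1 and 1039 in control and 640.3 and 527 in GFP-negative cells and fell by 1.03 ± 0.17.

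Noct, which encodes nocturnin, an enzyme of the circadian system that acts on NADPH, was the only one of 16 clock genes called. Its signals were 633 and 884 in control and 4624 and 3564 in GFP-negative cells. It rose by 2.39 ± 0.19 (2.81 in set 1 and 1.97 in set 2; adjusted p = 7.65e-05), with an adjusted p of 0.0466 without the block. The core clock genes gave a median of 0.26 in the negative limb and 0.12 in the positive limb, with 0 calls. Of 9 adipogenic genes Cebpd fell by 1.29 and Plin2, a coat protein of lipid droplets, rose by 0.82. Neither was called without control replicate 1 or without GFP-negative replicate 1. Of 23 Hox genes Hoxc5 alone was called at its brightest probe set, higher by 0.91 (adjusted p = 0.026), and no Hox gene was without control replicate 2 or either GFP-negative array.

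Germline genes are the class best known to be held silent by promoter methylation in somatic cells. Of 41 listed, 18 were bright enough to be tested. The filter used the mean over all 6 arrays, so a gene silent in control cells passed if treated cells expressed it. Among the 18, 6 rose and 0 fell, with a median of 0.30, and the filter tilts both count and median towards rises. Of all 13223 genes tested 321 rose and 278 fell. The promoter windows of 3 of the 4 largest rises are shown, since methylation at CG dinucleotides is what the drug removes. They are chr17:50293571-50293870 on the minus strand for Dazl, chr11:121145893-121146192 on the plus strand for Tex19.1 and chrX:37754358-37754657 on the plus strand for Rhox5 (GRCm38.p6, RefSeq), with each CG in capitals.
Dazl: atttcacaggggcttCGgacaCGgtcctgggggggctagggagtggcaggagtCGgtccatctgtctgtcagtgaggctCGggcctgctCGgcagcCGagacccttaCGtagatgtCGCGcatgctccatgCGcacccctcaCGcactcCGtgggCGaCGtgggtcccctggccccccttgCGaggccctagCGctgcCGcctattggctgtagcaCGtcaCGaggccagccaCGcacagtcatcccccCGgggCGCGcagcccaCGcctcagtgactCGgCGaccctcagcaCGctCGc
Tex19.1: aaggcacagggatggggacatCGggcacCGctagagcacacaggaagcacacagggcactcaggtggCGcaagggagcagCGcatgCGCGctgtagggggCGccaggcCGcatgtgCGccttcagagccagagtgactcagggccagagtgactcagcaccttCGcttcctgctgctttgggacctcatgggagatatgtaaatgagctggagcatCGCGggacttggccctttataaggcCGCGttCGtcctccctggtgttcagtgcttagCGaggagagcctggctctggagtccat
Rhox5: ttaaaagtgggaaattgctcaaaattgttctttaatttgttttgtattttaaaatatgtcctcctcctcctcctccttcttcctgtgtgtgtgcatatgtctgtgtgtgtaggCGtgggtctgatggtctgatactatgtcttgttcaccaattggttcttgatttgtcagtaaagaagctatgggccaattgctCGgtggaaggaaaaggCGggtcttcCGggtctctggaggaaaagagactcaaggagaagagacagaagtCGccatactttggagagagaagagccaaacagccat
The Dazl window holds 28 CG, a number reached by 14.2% of all windows, that of Tex19.1 holds 16 (33.0%) and that of Rhox5 holds 5 (62.0%). The median over all windows was 7, and that of the richest window per tested gene was 21.

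Dazl, an RNA-binding protein that germ cells need, was at 63.3 and 72.2 in control and 1150.5 and 407 in GFP-negative cells. The control arrays agree closely, and the treated arrays are higher but differ from each other. It rose by 2.87 ± 0.32 (3.65 in set 1 and 2.09 in set 2; adjusted p = 0.000539), and its second probe set rose by 3.42. Gtsf1, a factor of the piRNA pathway that silences transposons, was at 42.1 and 8.0 in control and 415 and 224 in GFP-negative cells. It rose by 2.67 ± 0.31 (2.62 in set 1 and 2.72 in set 2; adjusted p = 0.00081). Rhox5, a homeobox gene of the X chromosome active in testis and placenta, was at 112 and 95.3 in control and 1282 and 597 in GFP-negative cells. It rose by 2.76 ± 0.24 (3.20 in set 1 and 2.32 in set 2; adjusted p = 0.000113). Tex19.1, which protects germ cells against transposons, was at 100.4 and 90.5 in control and 921 and 449 in GFP-negative cells. It rose by 2.42 ± 0.25 (2.86 in set 1 and 1.99 in set 2; adjusted p = 0.00034). The germline genes Sohlh2 and Taf7l, the second of them X-linked, rose less, by 1.42 and 1.29. Sohlh2 was at 149 and 78.8 in control and 411 and 288 in GFP-negative cells, and Taf7l at 116 and 51.4 in control and 402 and 135 in GFP-negative cells. The remaining 12 tested genes of the list lay between -0.21 and 0.91 and were not called. Mnd1, a factor of meiotic recombination outside the list, was at 3.0 and 4.80 in control and 621 and 80.6 in GFP-negative cells and rose by 2.96 ± 0.50 (4.28 in set 1 and 1.65 in set 2; adjusted p = 0.00773). Between 4 and 6 germline genes were called when any 1 array was left out of the blocked fit.

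The number of CG in the promoter windows was set against the calls. Over the tested genes with a promoter window the median of the richest window per gene was 21 CG, and it was 20 for genes that rose and 17.5 for genes that fell. It was 16.5 for the 6 germline genes that rose and 17 for the 7 germline genes with a window that were tested and not called.

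On the X chromosome, which carries the transgene, 12 of 443 tested genes rose and 11 fell, with a median of 0.01. That is 5.19% called, and the autosomes ranged from 3.01% to 6.85%. Of 12714 autosomal genes 307 rose and 267 fell, with a median of 0.04. Among the X-linked genes that rose was Shroom4, an actin-binding protein, at 65.3 and 377 in control and 1985 and 1317 in GFP-negative cells. It rose by 3.06 ± 0.45 (4.39 in set 1 and 1.73 in set 2; adjusted p = 0.00346). Xist, the RNA that coats the inactive X, was at 5386 and 832 in control and 4217 and 547 in GFP-negative cells. It was far lower in set 2 in both groups, and its difference of -0.46 was not called (adjusted p = 0.138). The 6 other tested genes that escape X inactivation gave a median of 0.16 and 0 calls. The Y-linked gene Kdm5d was dim on all arrays, at 68.2 and 93.7 in control and 110.3 and 21.0 in GFP-negative cells, and the others were too dim to be tested.

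Imprinted genes are expressed from 1 parental allele under control of methylation. Of 24 tested 4 fell and 0 rose, with a median of -0.24, and the 14 paternally and 10 maternally expressed genes had medians of -0.24 and -0.25. Peg3, a paternally expressed zinc finger gene, was at 2087 and 2132 in control and 957 and 776 in GFP-negative cells and fell by 1.26 ± 0.17 (-1.10 in set 1 and -1.42 in set 2; adjusted p = 0.00178). Igf2r and Grb10, maternally expressed in most tissues, were at 5445 and 5100.2 in control and 3520.0 and 3043 in GFP-negative cells and at 9744 and 9074 in control and 6910.4 and 5409.5 in GFP-negative cells, lower by 0.68 and 0.62. The fourth is Dcn, counted among the proteoglycans above as well, and 1 rise was called without control replicate 1. Whether the listed genes were expressed from 1 allele in these cells was not measured. Of the 14 genes of the methylation machinery only the methyl-CG reader Mbd1 was called, higher by 0.79 at its brightest probe set, with 4 other probe sets not called. It was not called with quantile normalization or without control replicate 2, either GFP-negative array or either GFP-positive array. Dnmt1, the maintenance methyltransferase that the drug traps as a protein, was at 1039.9 and 645 in control and 1439.9 and 827 in GFP-negative cells. The groups overlap, and its difference of 0.40 was not called (adjusted p = 0.277).

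**Figure D4:**
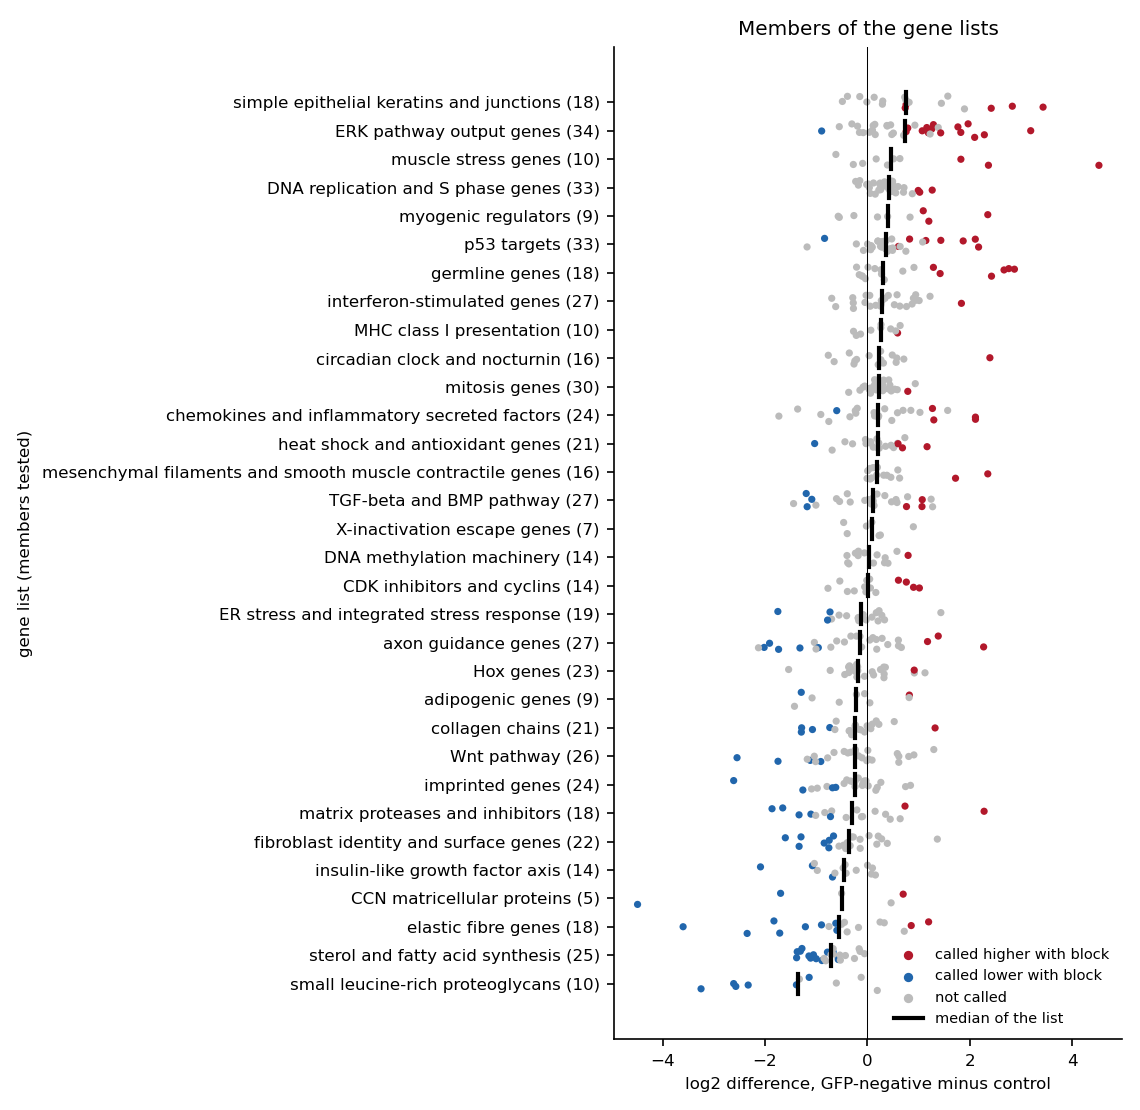
Log2 difference of GFP-negative minus control cells for every tested member of the gene lists, each gene at its brightest probe set, with the number tested in parentheses and a black bar at the median. Red and blue mark genes called higher or lower with the block, grey marks genes not called, and vertical scatter within a list has no meaning. Lists run from small leucine-rich proteoglycans, with a median of -1.36, to simple epithelial keratins and junctions, with 0.74. The filter also counted the treated arrays, which tilts medians of lists with genes dim in control cells upwards.

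Some targets of p53, the transcription factor that responds to DNA damage, rose. Of 33 tested 7 rose and 1 fell, 29 had a positive difference, and the median was 0.37 in all and 0.39 in each set. Over all 13223 genes 321 rose, 278 fell and 7200 had a positive difference. Mdm2, the ligase that removes p53, was at 1795 and 2371 in control and 4245 and 4959.7 in GFP-negative cells. It rose by 1.14 ± 0.13 (1.23 in set 1 and 1.05 in set 2; adjusted p = 0.000683). Cdkn1a, the cell cycle inhibitor p21, was at 6804 and 7761 in control and 11316 and 10837 in GFP-negative cells. It rose by 0.61 ± 0.12 (0.73 in set 1 and 0.48 in set 2; adjusted p = 0.0211). Pmaip1, the death effector NOXA, was at 765 and 2359.7 in control and 2861 and 4767 in GFP-negative cells and rose by 1.43 ± 0.18. Cd80, a T cell ligand counted among the targets, was at 28.8 and 4.30 in control and 326 and 214 in GFP-negative cells on the probe set with the largest rise, and its 3 tested probe sets rose by 2.17 to 2.70. Gadd45a was the gene that fell, at 1253 and 894 in control and 748 and 447 in GFP-negative cells. The count of rises was 3 without GFP-negative replicate 2, and that of falls 0 without control replicate 2 or either GFP-negative array.

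Of 7 tested cyclins 3 rose and 0 fell. The G1 cyclins Ccnd1, Ccne1 and Ccne2 rose by 0.76, 0.90 and 1.01, and no other CDK inhibitor than Cdkn1a was called among 7. These 4 rises became 0 without GFP-negative replicate 2 and 2 without GFP-negative replicate 1 or control replicate 2. Of 33 genes of DNA replication 3 rose and 0 fell, with a median of 0.42, and 1 rose without control replicate 2 or without GFP-negative replicate 2. They were the licensing factor Cdc6, at 136 and 183 in control and 299 and 592 in GFP-negative cells, and the nucleotide suppliers Rrm2 and Dck. Rrm2, a subunit of ribonucleotide reductase, was at 4026 and 3160.3 in control and 6936 and 7629 in GFP-negative cells and rose by 1.02 ± 0.16. Dck, the kinase that activates deoxycytidine and its analogues, was at 1493 and 619 in control and 2132 and 1779 in GFP-negative cells and rose by 0.99 ± 0.21, with its other 2 probe sets not called. Among 30 mitosis genes only Ect2 was called (0.79; adjusted p = 0.0472), and the median was 0.23. No mitosis gene was called with quantile normalization, without control replicate 2 or without GFP-negative replicate 1.

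Interferon-stimulated genes differed between the array sets. Of 27 tested 1 rose and 0 fell, and the median was 0.83 in set 1 and -0.11 in set 2. Usp18, a protease that limits interferon signalling, was at 159 and 169 in control and 1246 and 347 in GFP-negative cells and rose by 1.84 ± 0.38, 2.75 and 0.92 within the sets. Ifit1 was at 100.5 and 136 in control and 589.8 and 161 in GFP-negative cells, and its difference of 1.22 was not called. Without control replicate 2 11 were called higher, and without control replicate 1 2 were called lower. Of 10 genes of MHC class I presentation only H2-D1 was called, at 3018 and 2048 in control and 4926 and 2860.4 in GFP-negative cells, on 1 of its 5 tested probe sets, which ranged from -0.42 to 0.65. The single call of the list was lost without control replicate 1, either GFP-negative array or GFP-positive replicate 2, and 3 genes were called without control replicate 2.

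Markers of other cell types were summed over each list. The summed signal of 10 keratinocyte markers, of which 6 were tested, was 1321 and 672.6 in control and 1585 and 1450.0 in GFP-negative cells, and Sfn and Lor were called higher, with a median of 0.59 over the 6. The 2 calls became 0 without control replicate 2, GFP-negative replicate 2 or GFP-positive replicate 1. The filter over all 6 arrays tilts calls and median upwards, as for the germline genes. Lor, a cornified envelope protein, was at 372 and 107 in control and 656 and 331 in GFP-negative cells. Krt5 was at 197 and 71.3 in control and 137 and 128 in GFP-negative cells, and Krt14, at 102.8 and 45.1 in control and 100.2 and 63.7 in GFP-negative cells, did not pass the filter. Of the melanocyte, endothelial, leukocyte and Schwann cell markers 0 of 4, 6, 7 and 5 tested were called. Without control replicate 1 2 leukocyte markers were called higher, and without control replicate 2 1 endothelial marker was. The leukocyte sum, over 9 markers, was 1614 and 831.2 in control and 1796 and 1414 in GFP-negative cells, with Ptprc at no more than 60.1. The part of other cells in the rise of keratins was not tested.

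Against the GFP-positive cells, which had the same treatment and differ by the gate of the second sort, 0 of 27022 probe sets (0.0%) were called with limma, with the block or without. At an unadjusted p under 0.05 there were 169 without the block and 1553 with it (5.75% of those tested). With only these groups in the blocked fit 52 were called, and between 1 and 42 in blocked fits without any 1 array. Krt8, at 1219 and 1512 in GFP-positive cells, differed by 0.67 between the treated groups on the probe set printed above. Krt18 differed by 0.46, Krt7 by 0.20 and Ccn3 by -0.46. The 6 keratins of the list had a median of 0.11. Sterol and ERK output genes had medians of -0.01 and -0.02. The germline list had a median of 0.54. Dazl was at 2155 and 1851 in GFP-positive cells, above 1150.5 and 407 in GFP-negative cells, a difference of 1.50 (0.89 and 2.10 within the sets). For Gtsf1 it was 1.17 (0.77 and 1.57 within the sets) and for Taf7l 1.12 (0.89 and 1.36 within the sets). Bzw2, at 90.7 and 37.3 in control and 1519.9 and 290.2 in GFP-negative cells, rose against control by 2.96 on the probe set shown (adjusted p = 0.000324), with its other tested probe set at 0.11, and reached 3742 and 1618 in GFP-positive cells. None of these differences between treated groups passed after adjustment. Ddit3 came nearest, with 5179 and 5536 in GFP-positive cells, a difference of 1.13 (1.14 and 1.12 within the sets) and an adjusted p of 0.0681 in the blocked fit. It was the lowest in GFP-negative and the highest in GFP-positive cells on both array sets.

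**Figure D5:**
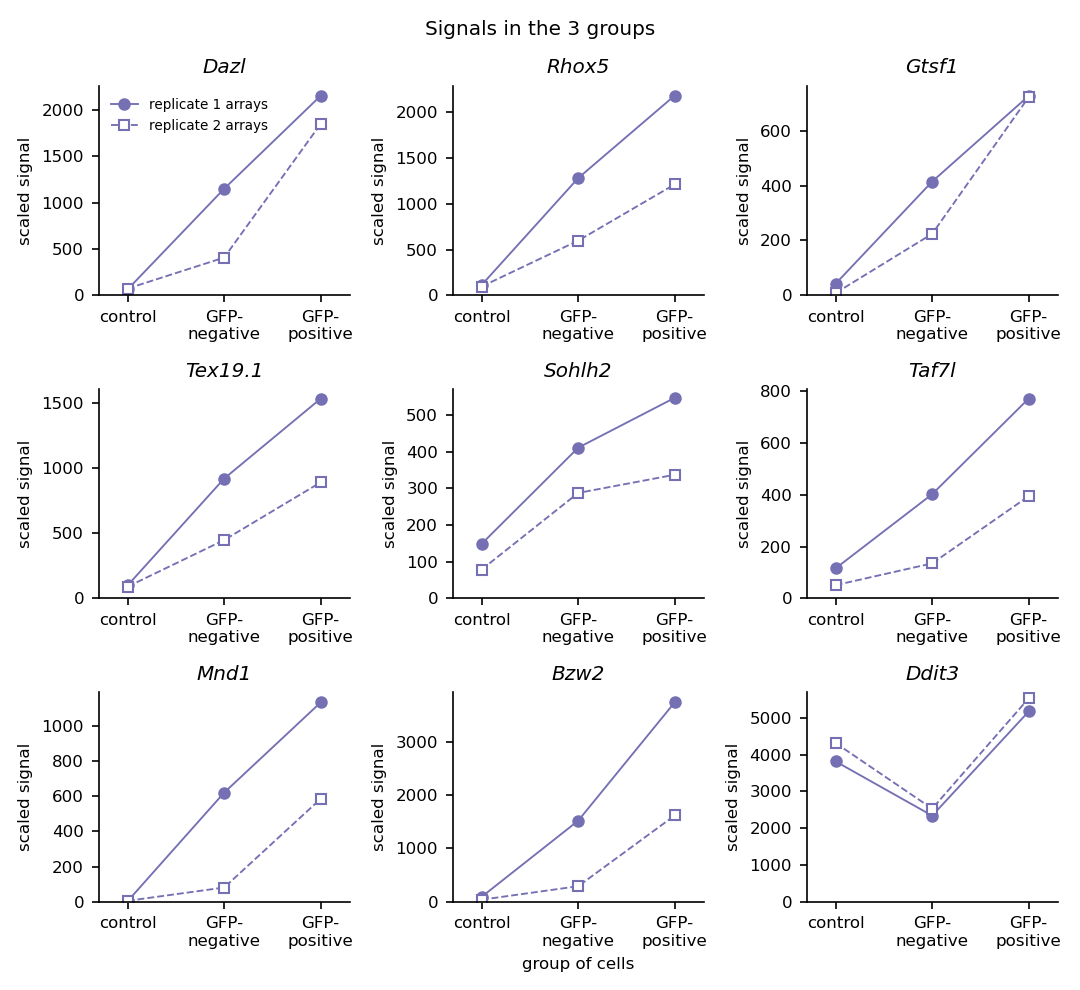
Scaled signal on a linear axis starting at 0 for the 6 called germline genes, Mnd1, Bzw2 and Ddit3 in control, GFP-negative and GFP-positive cells, filled circles for the replicate 1 arrays and open squares for the replicate 2 arrays. Lines join the arrays of a set. For all but Ddit3 the GFP-negative signals lie above both controls and below the GFP-positive signal of their set, and Ddit3 is lowest in GFP-negative cells.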

How the data were processed

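Total RNA of 6 samples was hybridised to Affymetrix mouse expression arrays, and groups follow the labels. The deposited values were signal intensities on a linear scale, 1 per probe set and array, and the submitters' processing notes name MAS5, its version not given in the sources used here. Label text of the treated samples calls them "untreated with" the drug, while their treatment fields name it; the latter was used.

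Arrays were scaled to a 2% trimmed mean of 500. Of 45101 probe sets 64 controls were left out, and of 45037 left, 34945 had 1 gene symbol in the platform annotation, 932 several and 9160 none; 34741 were matched to a mouse gene table. Probe sets were kept at a mean scaled signal of at least 67.71, the 40th percentile over the 6 arrays. For counts and medians of lists, genes were taken at their brightest probe set. The values printed for Krt8, Aspn, Fbn2 and Sfrp1 are of other probe sets, with smaller p in the blocked fit. At the brightest ones the differences were 2.83, -2.33, -2.35 and -2.55.

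Differences of log2(signal + 30.64) were fitted over all 6 arrays in R 4.3.3 with limma 3.58.1 (eBayes with trend, Benjamini-Hochberg adjustment), once without a block and once with array set as a block. The fit without a block was planned as the main one and the blocked fit as its alternative. Replicate numbers were taken as array sets by plan, and same-numbered arrays deviated together (correlations of 0.513, 0.506 and 0.556 between the group pairs). The fits were tested on simulated data. The members, lists and rules were chosen with earlier results of these data known. Named were the genes called without the block, the 12 largest rises and falls called with it that did not overlap, and up to 4 members of smallest p per list (6 in lists over 30); other genes named, among them further called members of lists, were chosen after their values were seen. Alternatives were other normalizations, offsets and filters, no trend, fewer groups, probe set types and leaving out arrays.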

Additional observations from a re-analysis of the deposited data

Results flagged for a closer look

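Ddit3 went in opposite directions in the treated groups on both array sets. It was at 3818 and 4318 in control, 2341 and 2532 in GFP-negative and 5179 and 5536 in GFP-positive cells, and GFP-positive minus GFP-negative cells gave 1.13 (1.14 and 1.12 within the sets). Its second probe set showed no call in either comparison. In limma, with the array sets entered as a block, the adjusted p of this difference was 0.0681, above the threshold, so the opposite directions are a description. No group had enough arrays to test single arrays as outliers.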

How the results depend on the processing

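Of GFP-negative against control cells 8 probe sets were called without a block. The count was 16 with median centring, 3 with an offset 4 times smaller, 3 with only the groups compared, 5 without probe sets ending in _x_at or _s_at and 0 without the trend. It lay between 0 and 6 without any 1 array. With the replicate block, the pairing of arrays by replicate number, it was 966, with 1002 for only the groups compared, 914 with quantile normalization, 996 with an offset 4 times larger, 1040 with the filter at the 70th percentile, 0 without the trend, 1254 and 1005 without control replicate 1 or 2, 485 and 553 without GFP-negative replicate 1 or 2, and 971 and 920 without GFP-positive replicate 1 or 2. It was 49 without both arrays deposited on another scale. For GFP-positive against GFP-negative cells the count of 0 became 52 with the block and only the groups compared, and, with the block, 42 and 35 without control replicate 1 or 2, 19 and 1 without GFP-negative replicate 1 or 2, and 13 and 1 without GFP-positive replicate 1 or 2. The cause of these changes was not tested.

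Gm9222 was not followed through the alternative runs. Of the other genes named, none that was called with the block changed direction under any of them. Without a block and without any 1 array Xist ranged from -1.90 to 0.97, Kdm5d from -1.10 to 0.35 and Krt5 from -0.48 to 0.68. With the block and without any 1 array these were -0.57 to -0.36, -1.38 to 0.62 and -0.62 to 0.83. Without both rescaled arrays and without a block Xist was at 0.97 and Kdm5d at 0.35. Fits without 1 array and without a block also hold the difference between the array sets. The block combined with another normalization, offset or filter, or with an array left out, and the fit without both rescaled arrays were chosen after seeing the data. With 2 arrays a group and signals of many silent genes near background, changes of dim genes are bounded poorly.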

Other observations

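Groups chosen after their values were seen add to the description, without a test of the group. The cornified envelope is the protein shell that keratinocytes form late in their life. Of its 35 genes with a probe set 16 were bright enough. Of these 8 rose, 0 fell and 15 were positive, with a median of 1.18. Over all 13223 genes 321 rose, 278 fell and 7200 were positive. The filter over all 6 arrays keeps genes that only treated cells express, which tilts the values of the group upwards. Lce1h, a late envelope protein, was at 639 and 951 in control and 2309.8 and 5226 in GFP-negative cells and rose by 2.11 ± 0.17. Crct1 was at 92.4 and 147 in control and 503 and 752 in GFP-negative cells and rose by 2.13 ± 0.23. Sprr1a, a small proline-rich protein also known from stressed cells, was at 227 and 219 in control and 776 and 1592 in GFP-negative cells and rose by 2.17 ± 0.32. Sprr2k was at 280.2 and 252 in control and 1054 and 1144 in GFP-negative cells and rose by 1.93 ± 0.19. In all these genes both treated arrays lay above both controls. Lce and Sprr genes are families of close relatives, and probes may bind more than 1 member. Involucrin, Ivl, at 58.0 and 172 in control and 193 and 439 in GFP-negative cells, was not called. Of the 6 tested keratinocyte markers 2 were called higher as well, Sfn and Lor, with a median of 0.59, and the summed signals of the 10 listed were 1321 and 672.6 in control and 1585 and 1450.0 in GFP-negative cells. The filter tilts the calls and the median of the markers in the same way. The part of keratinocytes in these values was not tested.

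A group of genes of amino acid uptake, amino acid synthesis, tRNA charging and the stress response to amino acid shortage held 8 falls and 0 rises among 35 tested. Of the 35, 7 were positive, and the median was -0.44. Among all 13223 genes 278 fell, 321 rose and 7200 were positive, with a median of 0.04. Trib3 and Ddit3, described above, are 2 of the 8, and none of the 8 is an enzyme that charges tRNA. Pck2, a mitochondrial carboxykinase, was at 5305 and 4585 in control and 2208 and 1850.2 in GFP-negative cells. It fell by 1.27 ± 0.15 (-1.25 in set 1 and -1.30 in set 2; adjusted p = 0.000983). Cth, which makes cysteine, was at 1821 and 2601 in control and 1004 and 1189.9 in GFP-negative cells and fell by 0.97 ± 0.16. Slc7a3, a carrier of cationic amino acids, was at 1235 and 557 in control and 359 and 256 in GFP-negative cells and fell by 1.37 ± 0.23. Psat1 and Aldh1l2, of serine and folate metabolism, fell by 0.67 and 0.87. Of 5 uroplakin genes, each at its brightest probe set, 1 was called. It was Upk1a, which rose from 95.7 and 25.7 to 470.1 and 179.8. A second probe set of Upk1b also rose, from 8.1 and 68.2 to 204.9 and 270.9.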
